A study of Mus musculus with 9 samples.

Results

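Frizzled proteins are receptors that span the membrane and bind Wnt ligands, and LRP5 and LRP6 are the coreceptors that bind the same ligand beside them. When both are engaged, Dishevelled gathers at the Frizzled tail and Axin at the phosphorylated LRP tail, β-catenin is no longer degraded, and it acts in the nucleus with TCF and LEF factors. In thymocytes this pathway is best known for its part in early T cell development, and a form of β-catenin that cannot be degraded acts below the receptors. Here the 7 receptor genes Fzd1, Fzd3, Fzd5, Fzd6, Fzd7, Lrp5 and Lrp6 were followed. They were chosen by name, as every probe set with one of them as its single gene symbol, which gave 18 of 45037 probe sets and 7 of 18193 named genes.

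RNA of mouse thymocytes was read on 9 oligonucleotide arrays, 1 C57Bl/6 mouse each. The 2 control mice (R26NC/NC CD4Cre-) and the 3 pre-transformed mice (R26NC/NC CD4Cre+) were 6 weeks old, and their CD4+CD8+ double-positive (DP) thymocytes were sorted to a purity above 98%. The 4 tumour samples were whole thymic tumours of R26NC/NC CD4Cre+ mice aged 28, 26, 23 and 21 weeks (tumours 1 to 4), in which at least 95% of cells were CD4+CD8+. All groups carried the R26NC allele on both copies, and the controls differed in lacking the CD4Cre transgene. The series concerns an activated form of β-catenin in T cells, and the pre-transformed thymi were of normal size. RNA input was 0.1 µg for sorted cells, labelled with the MessageAmp kit, and 2.5 µg for tumours, labelled by the Affymetrix procedure. Effects of label chemistry, sorting and age therefore cannot be told apart from that of the tumour.

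Values are MAS5 signals, a summary of the probes of a set on a linear scale, with the trimmed mean of every array at 100. A signal was called dim if under the 65th percentile of its array, a limit of 39.4 to 44.6 for sorted cells and 28.5 to 40.5 for tumours. The 27 probe sets for bacterial transcripts reached at most 2.4 to 5.0 by array in sorted cells and 7.8 to 13.9 in tumours, so low signals read higher in tumours also where no mouse RNA was measured. Of 8 measured DP marker genes, 8 were above the dim limit on all sorted arrays and 7 on all tumour arrays; the other one, Ptcra, read 2.7 to 6.8 in tumours. Of these 8, 7 were called lower in tumours than in pre-transformed cells, beside 31% of all genes tested. The median log2 difference was −1.90 over the list, beside −0.12 over all genes. Among the 7 were Rag2 (8.06-fold), Dntt (3.93-fold) and Cd3e (3.89-fold), while Cd8b1 (1.67-fold) and Cd8a (1.53-fold) fell less. Cd4 was not called in that comparison. Against controls 6 of the 8 were lower and 1, Cd4, was higher (1.71-fold), beside 25.2% and 20.5% of all genes. The part of this shift in the tumour comparisons was not tested. Of 7 myeloid markers 6 were above the limit in tumours 1, 3 and 4 and 1 (Itgam) in tumour 2, with summed signals of 2929.8, 141.1, 3091.9 and 2871.5 in tumours 1 to 4 against 97.9 to 214.5 in sorted cells. Of 3 B cell markers 3, 1, 3 and 3 were above the limit in tumours 1 to 4, against 1 on each sorted array. That 1 was Ighm, at 1552.8 to 2778.9 in sorted cells and 238.7 in tumour 2. All 8 thymic epithelial markers were dim on every array, and of 7 fibroblast markers Col3a1 alone passed the limit, in tumour 1 alone. For cell types other than DP, fewer cells of a type and less RNA per cell cannot be told apart in such bulk samples. For DP cells the labels give the share of cells, as stated above.

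The promoter of Fzd5 is shown because Fzd5 was the member gene that passed the test in both tumour comparisons, and that of Fzd7 for comparison. Each run covers the 250 bases before the RefSeq start site (GRCm38.p6), 5′ to 3′ on the strand of the gene, with capitals for matches, on either strand, to the TCF/LEF word CTTTG followed by AA, AT, TA or TT. Fzd5 lies at chr1:64737751-64738000 on the minus strand and Fzd7 at chr1:59481897-59482146 on the plus strand.
Fzd5: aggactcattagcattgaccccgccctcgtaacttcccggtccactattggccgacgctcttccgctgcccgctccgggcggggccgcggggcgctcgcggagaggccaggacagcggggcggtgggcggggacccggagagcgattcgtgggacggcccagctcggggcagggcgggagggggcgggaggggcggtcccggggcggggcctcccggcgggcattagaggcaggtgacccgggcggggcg
Fzd7: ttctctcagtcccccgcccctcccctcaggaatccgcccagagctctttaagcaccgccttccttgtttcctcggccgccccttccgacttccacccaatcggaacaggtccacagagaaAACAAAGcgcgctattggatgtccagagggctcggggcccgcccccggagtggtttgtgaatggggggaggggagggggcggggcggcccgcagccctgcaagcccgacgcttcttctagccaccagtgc
The Fzd5 window held 0 matches and the Fzd7 window 1, while 14.8% of 32851 promoter windows of this length held at least 1. The Fzd1 window held 0 as well, and windows of the other members were not in the table used. The Fzd5 window was 76.4% G and C, against a median of 52.4% over all windows.

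Most of the receptors gave little signal in DP thymocytes. By every probe set, 4 of the 7 genes (Fzd1, Fzd3, Fzd6 and Lrp5) were dim on all 9 arrays, and in all 14 of the 18 probe sets were dim throughout, between 0.2 and 24.1. In sorted cells Lrp6 alone was above the dim limit, by both of its probe sets on all 5 arrays. In tumours Fzd5 and Lrp6 were above it on all 4 arrays by 1 probe set each, and Fzd7 on 1. The other 5 Frizzled genes (Fzd2, Fzd4, Fzd8, Fzd9 and Fzd10) were dim on all arrays by all 11 of their probe sets, with a highest signal of 24.9.

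**Figure D1:**
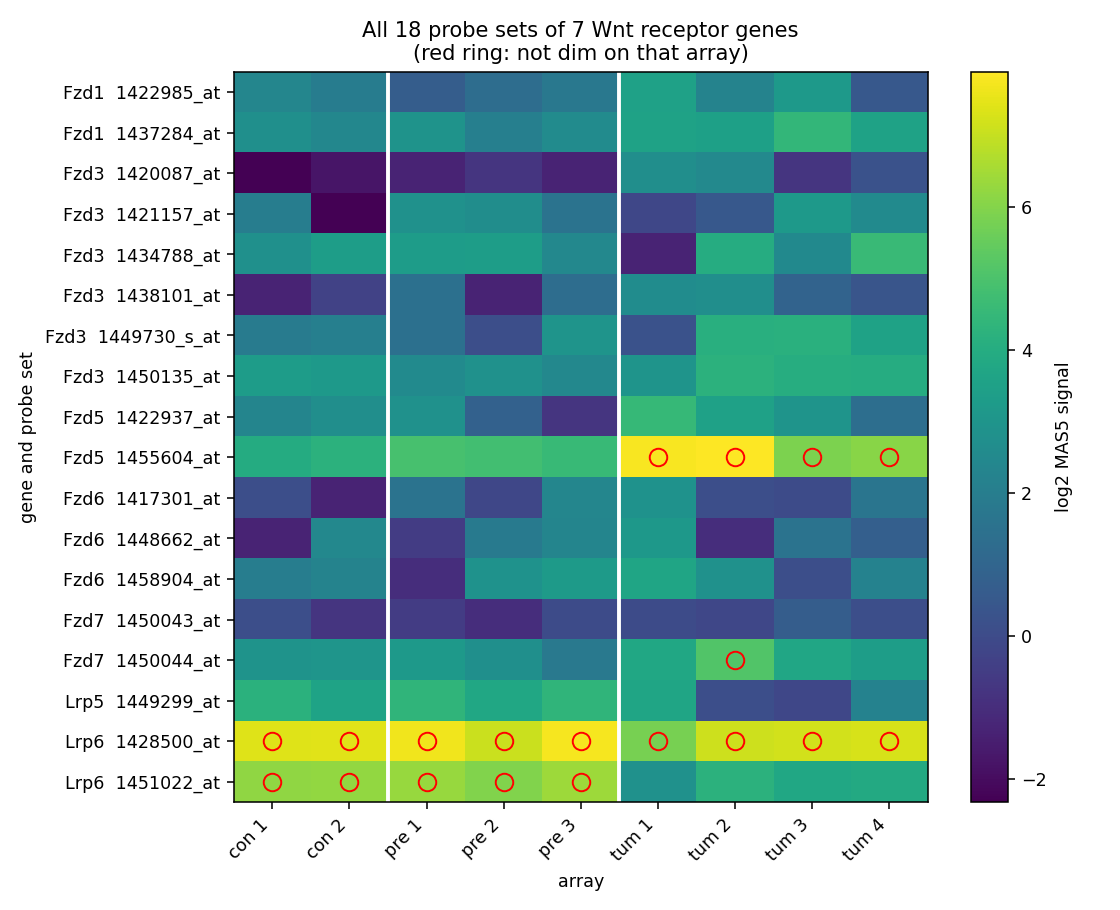
Each row is a probe set of a Wnt receptor gene and each column an array (con, control; pre, pre-transformed; tum, tumour); colour is the log2 MAS5 signal, and a red ring marks a signal that was not dim. Lrp6 has rings on all 9 arrays by 1 probe set and on the 5 sorted arrays by the other, and Fzd5 on the 4 tumour arrays.

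To ask what active β-catenin changes before tumours form, pre-transformed were compared with control DP thymocytes. Of the 7 genes 5 had a probe set that reached the array median on at least 2 arrays and were tested. Limma called 0 of these 5, where it called 1.63% of 11644 genes in either direction. Tested by probe set, 0 of 9 were called, against 0.833% of 26421.

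Fzd5 encodes a receptor of canonical and noncanonical Wnt ligands. Its brighter probe set (1455604_at) read 15.5 and 19.0 in control mice and 30.7, 27.9 and 23.6 in pre-transformed mice. The pre-transformed values all lay above the controls, as for 20.6% of all genes, but both groups were dim, and the log2 difference of 0.67 ± 0.27 SE missed the threshold (adjusted p = 0.251). With the mean of both Fzd5 probe sets the difference was −0.44 (adjusted p = 0.76), since the other probe set (1422937_at) read 5.0 and 6.6 in controls and 7.2, 1.8 and 0.6 in pre-transformed mice.

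Lrp6 encodes the coreceptor whose tail recruits Axin. Probe set 1428500_at read 170.8 and 171.5 in controls and 206.8, 133.5 and 215.9 in pre-transformed cells, and probe set 1451022_at read 72.8 and 75.2 against 80.8, 62.9 and 85.5. In both cases the pre-transformed values lay on either side of the controls. The log2 differences were 0.08 ± 0.21 SE (adjusted p = 0.874) by gene and, for the second, 0.03 ± 0.19 SE (adjusted p = 0.949) by probe set. Lrp5, the related coreceptor, read 18.2 and 12.1 against 20.8, 13.6 and 20.7, dim throughout (adjusted p = 0.73).

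To ask what sets tumours apart, tumour arrays were compared with the pre-transformed and the control arrays, 2 comparisons that share the tumour samples. Fzd5 was higher in tumours than in both sorted groups, and the dimmer Lrp6 probe set was lower than in both. The remaining calls, those of Fzd1, Fzd3 and Lrp5, were against pre-transformed cells alone and concerned dim signals on both sides. By gene, 4 of 5 tested were called against pre-transformed cells, 3 higher and 1 lower, beside 54.9% of 11644 genes (23.9% higher and 31% lower). Against controls 1 was called, higher, beside 45.7% of genes (20.5% higher and 25.2% lower). By probe set, 3 of 9 were higher and 2 lower against pre-transformed cells, beside 49.8% of 26421 called (23.1% and 26.7%), and 1 was higher and 1 lower against controls, beside 39.9% (19.4% and 20.5%). The probe sets that stand for Fzd1 and Fzd3 in the fit by gene passed the filter on low signals through tumour arrays alone. So did the dimmer one of Fzd5 and 1449730_s_at of Fzd3 in the fit by probe set. The Lrp5 probe set passed through sorted arrays alone. These counts of members called therefore describe neither all 7 genes nor a chance sample of them.

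**Figure D2:**
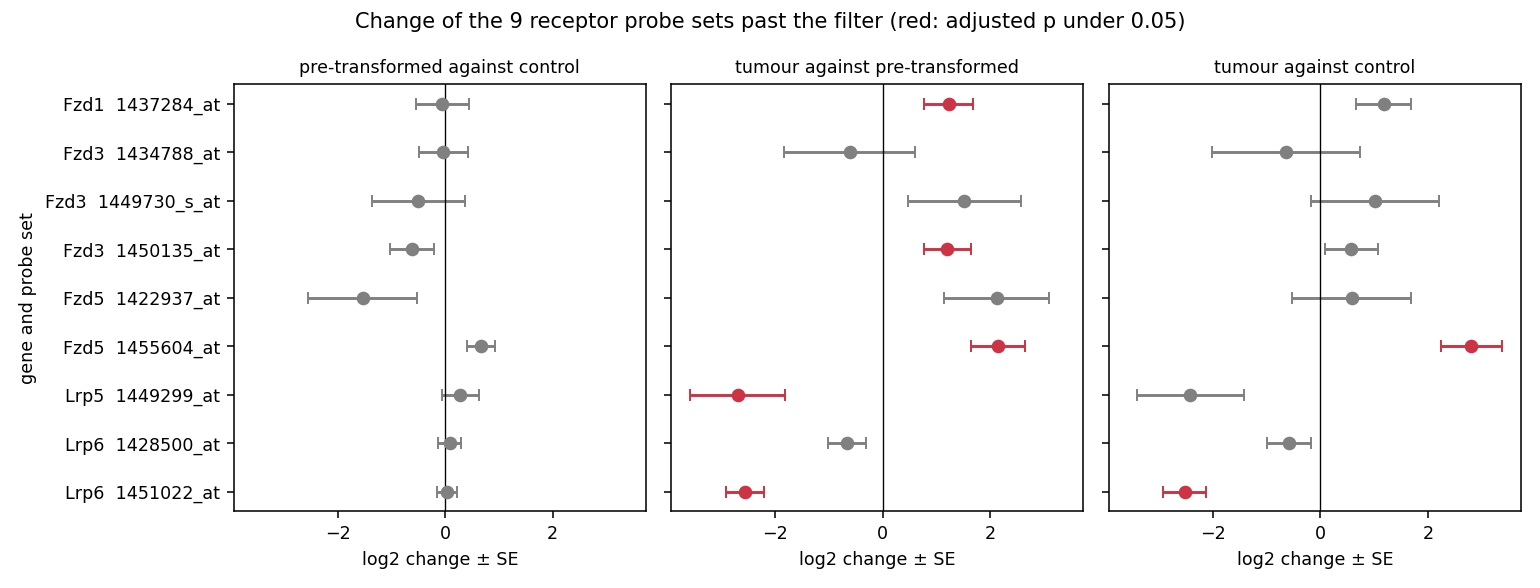
Points are log2 changes with bars of 1 SE for the 9 member probe sets past the filter, in each of the 3 comparisons, and red marks an adjusted p under 0.05. No point is red between the sorted groups, 5 are red against pre-transformed cells, and 2 are red against controls (Fzd5 1455604_at, higher, and Lrp6 1451022_at, lower).

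Fzd5 by its brighter probe set read 221.4, 238.4, 59.3 and 66.9 in tumours 1 to 4. Every tumour value lay above every sorted value, as for 24.8% of genes against pre-transformed cells and 27.4% against controls. Tumours 1 and 2, aged 28 and 26 weeks, read higher than tumours 3 and 4, aged 23 and 21 weeks; a relation with age was not tested over 4 mice. The mean was 120 in tumours (SD 1.08 on the log2 scale, n = 4), 27.2 in pre-transformed cells (SD 0.19, n = 3) and 17.2 in controls (SD 0.21, n = 2). Because both sorted groups were dim, these are rises of at least 2.75-fold and at least 2.95-fold, with the dim signals set to the dim limit. The log2 differences on the measured signals were 2.14 ± 0.50 SE (adjusted p = 0.00483) and 2.81 ± 0.57 SE (adjusted p = 0.00316). In order, control and pre-transformed levels did not differ beyond the test, and tumours lay above both.

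Beside these Fzd5 signals, 6, 1, 6 and 6 of 7 myeloid markers were above the dim limit in tumours 1 to 4, and the part of myeloid cells in the Fzd5 difference was not tested. Leaving out each array in turn gave 1.81 to 2.48 against pre-transformed cells and 2.48 to 3.15 against controls, with Fzd5 called each time. The second Fzd5 probe set read 23.3, 11.5, 7.9 and 2.6 in tumours 1 to 4. It was dim on all arrays, its tumour values overlapped those of both sorted groups, and it passed in neither comparison (adjusted p = 0.0957 and 0.695 by probe set). Averaged with it, Fzd5 no longer passed against controls (log2 difference 1.70, adjusted p = 0.0841).

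**Figure D3:**
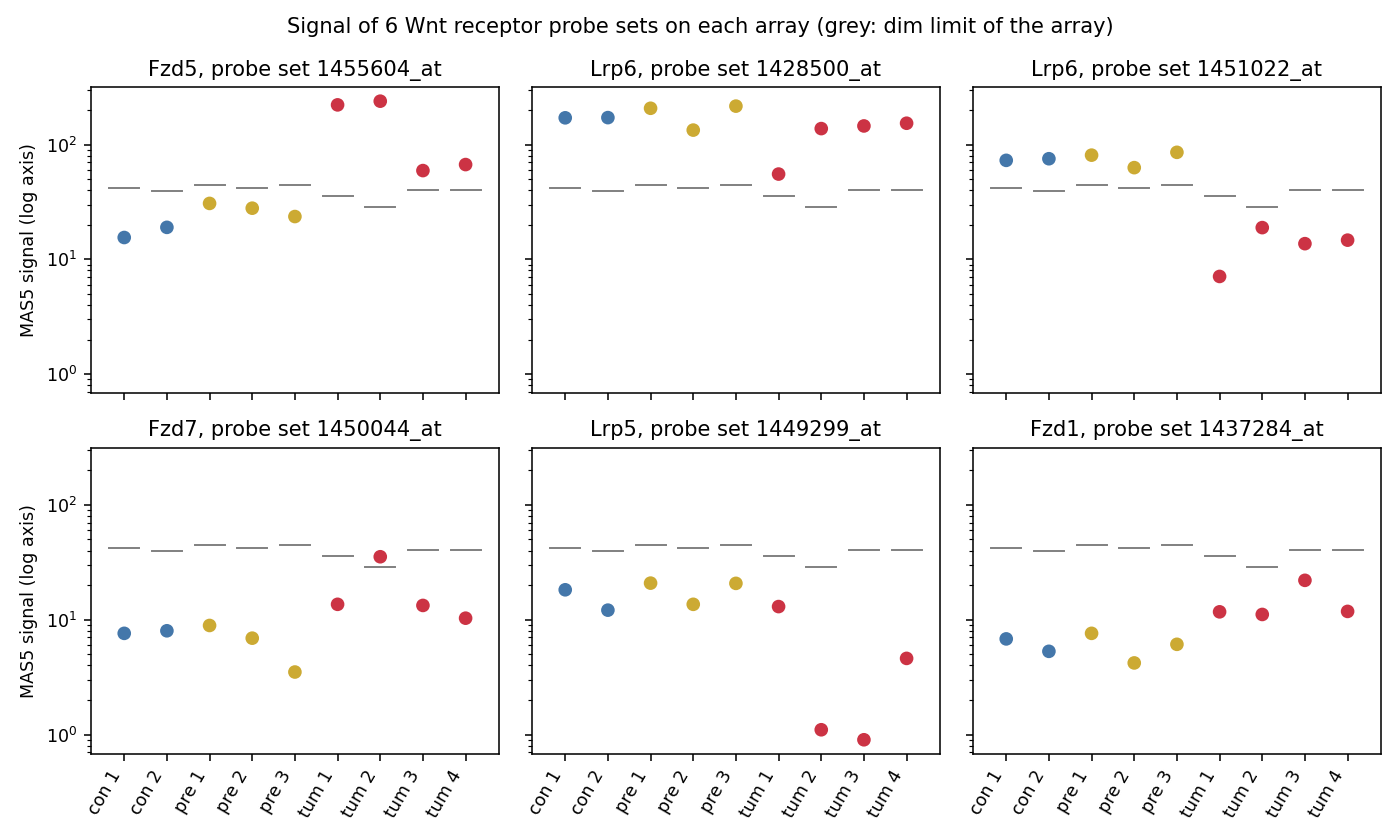
Each panel gives 1 probe set and each point 1 array (blue, control; yellow, pre-transformed; red, tumour) on a log axis of MAS5 signal, with a grey line at the dim limit of that array. Fzd5 lies above the line on the 4 tumour arrays alone (59.3 to 238.4), and Lrp6 1451022_at on the 5 sorted arrays alone (62.9 to 85.5).

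Of the 2 probe sets of Lrp6, 1 passed the test in tumours; the difference between them was not tested. Probe set 1428500_at read 55.3, 137.6, 145.1 and 153.2 in tumours 1 to 4, with tumour 1 far below the others. These values overlapped the pre-transformed range and lay below both controls, as for 33.1% of genes. The log2 differences of −0.67 ± 0.35 SE and −0.59 ± 0.40 SE from pre-transformed and control cells did not pass (adjusted p = 0.13 and 0.249). Probe set 1451022_at read 7.1, 18.9, 13.7 and 14.7, dim in all tumours and below all 5 sorted arrays, as for 29.7% and 30% of probe sets against pre-transformed cells and controls. It fell by at least 2.11-fold against pre-transformed cells (log2 difference −2.56 ± 0.35 SE, adjusted p = 0.000313 by probe set) and by at least 2.06-fold against controls (−2.53 ± 0.39 SE, adjusted p = 0.00115). With 1 array left out these differences ran from −2.75 to −2.28 and from −2.72 to −2.25 and stayed past the threshold.

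Beside these Lrp6 values, the 3′ to 5′ log2 ratio of the β-actin control probe sets was 0.26 in sorted cells (SD 0.05, n = 5) and 0.81 in tumours (SD 0.28, n = 4; exact two-sided permutation test, p = 0.0159, the lowest value that 126 splits can reach). That of Gapdh was −0.20 and −0.31 (exact two-sided permutation test, p = 0.317). The part of transcript ends or of the labelling kit in the fall of the dimmer Lrp6 probe set was not tested, and the places of both probe sets in the transcript are not given in the sources used here.

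Lrp5 was dim on all 9 arrays, with 13.0, 1.1, 0.9 and 4.6 in tumours 1 to 4 against 13.6 to 20.8 in pre-transformed cells. All tumours lay below those cells, as for 32.1% of genes, but tumour 1 lay within the control range of 12.1 to 18.2. Its log2 difference of −2.70 ± 0.88 SE from pre-transformed cells was called (adjusted p = 0.0253) and that of −2.42 ± 1.00 SE from controls was not (adjusted p = 0.0713). The first call was lost without pre-transformed 1, 2 or 3 (adjusted p = 0.0785, 0.0516 and 0.0787) or without tumour 3 (adjusted p = 0.0502), and without tumour 1 the second was made (adjusted p = 0.0122).

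Fzd1 and Fzd3 encode Frizzled receptors of canonical signalling and of axon guidance and planar polarity, respectively. Fzd1 (1437284_at) read 11.7, 11.1, 22.0 and 11.8 in tumours 1 to 4 and 7.6, 4.2 and 6.1 in pre-transformed cells, and Fzd3 (1450135_at) 7.8, 18.8, 16.7 and 15.9 against 6.0, 7.1 and 5.4. Both sets of tumour values lay above the pre-transformed ones, as for 24.8% of all genes, with adjusted p = 0.0476 and 0.0438. Both calls concern signals of at most 22.0, where bacterial probe sets reached 13.9 in tumours. The Fzd1 call was lost without any of the 5 arrays whose removal left it tested (adjusted p = 0.0576 to 0.151), namely pre-transformed 1, 2 and 3 and tumours 1 and 4. The Fzd3 call was lost without each array but tumour 1 (adjusted p = 0.0725 to 0.121 without each of pre-transformed 1 to 3 and tumours 2 to 4). The other 5 Fzd3 probe sets read 0.2 to 24.1, and the pair of them that was tested had log2 differences of −0.61 and 1.51 (adjusted p = 0.698 and 0.254 by probe set). The latter, 1449730_s_at, passed the filter through tumour arrays alone.

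Fzd6, a receptor of planar polarity in skin, and Fzd7, a receptor known from stem cells, did not pass the filter. The 3 Fzd6 probe sets read 0.4 to 9.6 in sorted cells and 0.5 to 12.7 in tumours, with all groups overlapping. Fzd7 by its brighter probe set (1450044_at) read 7.6 and 8.0 in controls, 8.9, 6.9 and 3.5 in pre-transformed cells and 13.6, 35.3, 13.3 and 10.3 in tumours. Every tumour lay above the sorted arrays, as for 24.8% and 27.4% of tested genes against pre-transformed cells and controls, and tumour 2 alone passed the dim limit. With no filter, the log2 difference from pre-transformed cells was 1.42 ± 0.56 SE (adjusted p = 0.068). The other Fzd7 probe set stayed between 0.5 and 1.6 on all arrays.

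By the root mean square difference of centred log2 profiles over the 9 arrays, the genes most like Fzd5 were Mt2 (0.30), Cysrt1 (0.38) and Cab39l (0.44), where Fzd5 itself had a spread of 1.38. Mt2, a metallothionein gene, read 10.5 to 18 in sorted cells and 142.5, 210.1, 57.9 and 33.4 in tumours 1 to 4. Those most like Lrp6 by its brighter probe set (1428500_at), which was not called in tumours, were Cog6 (0.19), Zfp59 (0.20) and Xpc (0.20). That probe set had a spread of 0.54. Cog6, a Golgi trafficking gene, read 237.8 to 328.9 in sorted cells and 103.9, 168.4, 187.7 and 205.2 in tumours. For Lrp5 they were Map3k8, Ppp1r3f and Plod1 (0.54, 0.56 and 0.59), for Fzd1 Pus1, Bop1 and Zfp783 (0.19, 0.21 and 0.21), and for Fzd3 Foxm1, Fgfbp3 and Rpusd2 (0.14, 0.21 and 0.22).

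Beside the receptors, 95 genes in 8 lists make, bind, mature or read Wnt receptors; 92 had a named probe set and 50 were tested. Between the sorted groups limma called 0 of 50, beside 1.63% of all genes. In tumours 6 were higher and 17 lower against pre-transformed cells, beside 23.9% and 31% of all genes, and 8 higher and 15 lower against controls, beside 20.5% and 25.2%. The higher counts include Ryk, Shisa2, Wif1 and Notum, which passed the filter through tumour arrays alone. With each array centred on its median the list counts became 4 and 22, and 4 and 23. Over all 11644 genes that centring called 1877 higher and 4279 lower against pre-transformed cells, and 1253 and 4132 against controls. With quantile normalization the list counts were 8 and 15, and 4 and 14. The counts over all genes were then 2784 and 3280, and 2224 and 2665. The median log2 difference of the 50 from pre-transformed cells was −0.11, against −0.12 for all genes.

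Among other Wnt receptors 2 of 5 were tested. Ryk, an atypical kinase that binds Wnt, rose from 0.7 to 1.2 in pre-transformed and 0.8 and 1.3 in control mice to 98.9, 179.6, 72.5 and 177.3 in tumours 1 to 4. That is at least 2.81-fold and at least 3.02-fold (adjusted p = 1.09e-05 and 5.17e-05). All tumours lay above all sorted arrays, as for 24.8% of genes against pre-transformed cells and 27.4% against controls. A second Ryk probe set read 42.5 to 135.9 in tumours, and the remaining one was dim on all arrays, at 0.2 to 9.3. The brightest and the second probe set reached the array median on tumour arrays alone, so Ryk was tested only through the group where it was high. Ptk7, a receptor of planar polarity, was called lower but was dim in all groups. Of 9 R-spondins, their receptors and the ligases that clear Frizzled from the surface, 2 were tested. Rspo2 was called higher against pre-transformed cells, dim in both groups, and the call was lost with quantile normalization and with median centring.

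Of the 15 antagonists and their coreceptors, 14 were on the array and 5 tested. Kremen1, which binds Dickkopf and removes LRP6 from the surface, fell from 695.8, 693.5 and 761.6 in pre-transformed cells to 122.9, 170.0, 234.6 and 210.2 in tumours, 4.00-fold (adjusted p = 5.72e-05). Against controls, at 513.5 and 585.0, it was 3.06-fold lower (adjusted p = 0.00066). A second Kremen1 probe set was also lower, at 22.7 to 123.3 in tumours and 272.9 to 465.7 in sorted cells, and the remaining one was dim on all arrays but tumour 2. Wif1 and Notum, secreted inhibitors, were called higher in both comparisons, but their mean signals in tumours were 35.3 and 13.9. Wif1 ranged from 3.2 to 181.9 across tumours. On sorted arrays Wif1 read at most 3.5 and Notum at most 2.3, under every array median (9.9 or more). Both were therefore tested only through the group where they were high. Of them Notum was dim in all groups, and for Wif1 no fold is given, since the dim limit left its direction unsettled. With quantile normalization the Wif1 call against controls was lost. Sfrp4, a secreted Frizzled-related protein, was called higher against controls alone, dim in both groups, and lost its call with either normalization.

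Of 7 genes of receptor folding and maturation on the array, 6 were tested. Shisa2, which holds Frizzled in the endoplasmic reticulum, rose from 0.3 in all pre-transformed mice to 244.5, 230.6, 125.2 and 155.9 in tumours, at least 4.17-fold (adjusted p = 6.37e-06). Its probe sets reached the array median on tumour arrays alone, so Shisa2 too was tested only through the group where it was high. Lmbr1l, which promotes degradation of Wnt receptors in lymphocytes, fell 2.94-fold (165 to 56.1, adjusted p = 0.000201), and the LRP chaperone gene Lrpap1 fell 1.71-fold (412 to 240, adjusted p = 0.00704). Against controls these 3 were called in the same directions.

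Among 22 ligand and secretion genes 8 were tested. Wls, which carries Wnt proteins to the cell surface, fell from 85.7 to 121.0 in pre-transformed cells to 11.3, 1.4, 7.6 and 5.9 in tumours, at least 2.79-fold (adjusted p = 0.000275). Wnt8b by its brightest probe set read 224.9 and 256.0 in controls and 464.0, 580.3 and 340.4 in pre-transformed cells, which missed the threshold (adjusted p = 0.0702). It fell to 14.5, 16.3, 48.6 and 39.5 in tumours (adjusted p = 4.86e-05), of which 1 of 4 was above the dim limit, so that no fold is given. Wnt10a was called higher against controls, dim in both groups, and lost its call with either normalization.

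Of 21 proteins that act on the receptor tails inside the cell 19 were tested, with 1 higher and 10 lower against pre-transformed cells, beside 23.9% and 31% of all genes, and 2 higher and 7 lower against controls, beside 20.5% and 25.2%. The list median was −0.55 against pre-transformed cells, beside −0.12 over all genes. With quantile normalization the counts against pre-transformed cells were 3 higher and 8 lower, beside 2784 and 3280 of 11644 genes. Gsk3b, a kinase of LRP6 and of β-catenin, fell from 1097.0, 1054.4 and 1020.2 to 258.8, 287.7, 274.9 and 274.3 in tumours 1 to 4, 3.86-fold (adjusted p = 5.83e-06). Csnk1e, a kinase of Dishevelled, fell 3.55-fold (adjusted p = 0.000181), and Dvl1, a Dishevelled gene, fell 3.55-fold from 834 to 235 (adjusted p = 0.000201). The gene called higher was Csnk1a1, by its brightest probe set (1.64-fold, adjusted p = 0.00156), and median centring ended its call. Another of its probe sets read 1286.7 to 1482.5 in sorted cells and 798.8 to 971.5 in tumours. Its probe set 1437923_at was lower in tumours as well, at 118.6 to 311.9 against 378.9 to 684.0 in sorted cells. Of its remaining probe sets, 1430529_at overlapped between the groups and 1451497_at was dim on all arrays. Of 9 planar polarity genes 7 were tested, and 1 of them was lower against pre-transformed cells, beside 31% of all genes. It was Celsr2, an atypical cadherin gene (adjusted p = 0.00843), with 1 of 4 tumour arrays above the dim limit. Celsr1 and Celsr2 were lower against controls (adjusted p = 0.0117 and 0.0229), beside 25.2% of all genes. Axin2, a target and brake of the pathway, was 2.13-fold higher in tumours than in controls (adjusted p = 0.01), a call that median centring ended. By the same probe set it read 94.8 and 70.0 in controls and 136.2, 137.4 and 141.0 in pre-transformed cells. The pre-transformed values lay above both controls, as for 20.6% of all genes, but Axin2 was not called there. Tumours read 127.2 to 251.2, which overlapped the pre-transformed values, and Axin2 was not called against those cells.

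**Figure D4:**
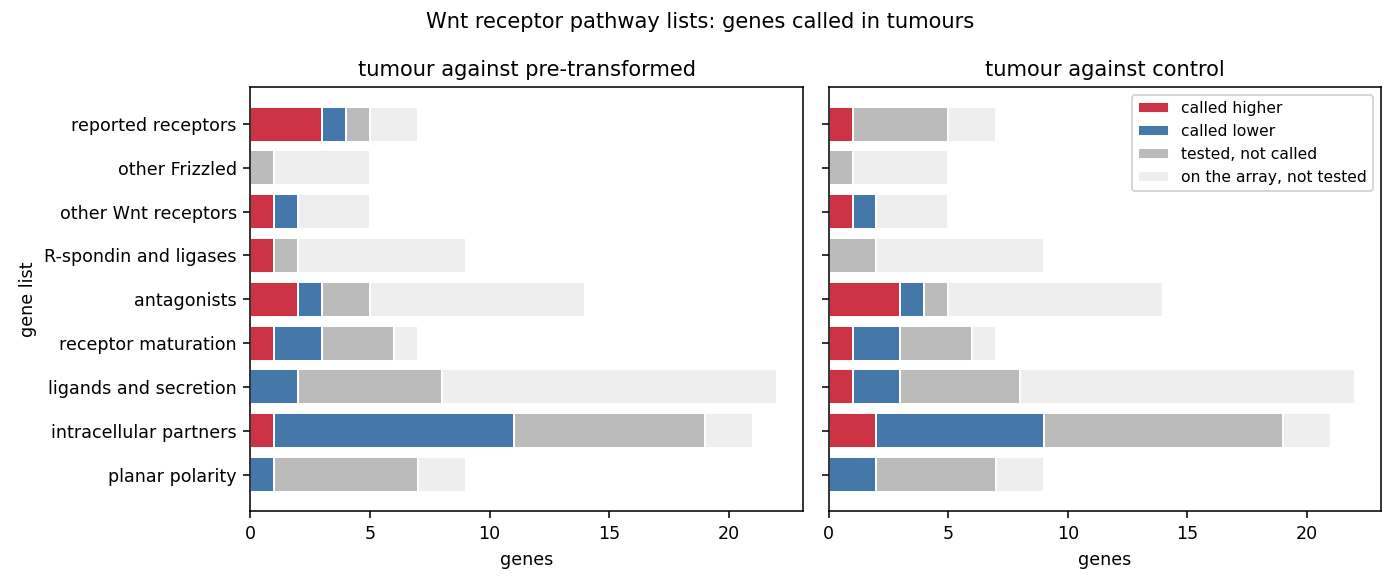
Bars count the genes of each list on the array, split into those called higher (red), called lower (blue), tested but not called (grey) and not tested (pale grey), for tumours against pre-transformed cells (left) and against controls (right). The list of intracellular partners holds 10 lower genes on the left and 7 on the right.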

How the data were processed

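What the authors deposited is MAS5 intensity (linear, by probe set); the method is named in the submitters' processing notes, with no version among the sources used. Log2 signals were used with no further normalization, after zeros had been raised to 0.1. The 64 control probe sets were left out. Probe sets at or above their array median on at least 2 arrays were kept (26421), and the brightest of these on average stood for its gene (11644 genes). Probe sets were named through a platform table updated by gene ID: 34945 named 1 gene, 932 several and 9160 none. Models were fitted with limma (version 3.58.1; R version 4.3.3; eBayes with trend) to the sorted arrays alone for pre-transformed against control, and to all 9 arrays for both tumour comparisons. Calls had a Benjamini-Hochberg adjusted p under 0.05 over all genes, or over all kept probe sets where "by probe set" is written. Group means are geometric, and SDs are on the log2 scale. A fold with 1 dim group is given as at least a value: the dim group was set, per array, to the 65th percentile or to its own signal if higher.

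The members, lists and tests were chosen with earlier results of these data known. Named were all members, up to 3 called genes of each list, comparison and direction with the smallest p, and the 3 genes most like each tested member. Of genes a list and comparison called, those not described above are given by count. The fit was checked on simulated data. Alternatives were no filter, a filter on 4 arrays, quantile normalization, median centring, signal + 16, a floor of 32, all probe sets, their mean by gene, no _x_at or _s_at sets, array weights, robust variance, eBayes with no trend, a 2-fold minimum change, other arrays in the fit, replicate number as a block, and each array left out. Tumour 2 as the only tumour, and every alternative for the second Lrp6 probe set, were added after seeing the data. Mice sharing a replicate number are different animals and were not paired. Precision is limited by having 2 to 4 arrays in a group.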

Additional observations from a re-analysis of the deposited data

Results flagged for a closer look

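Among the 4 tumours, 3 of the 18 receptor probe sets had a value that stood apart from the other tumours by Dixon's criterion on the log2 scale, which chance meets in about 1 in 20 groups. Tumour 1 read 55.3 for Lrp6 (1428500_at), below the other tumours, where the gap was 0.895 of the range. Tumour 3 read 22.0 for Fzd1 (1437284_at), above the others (0.911 of the range). Tumour 1 read 1.2 for Fzd3 (1449730_s_at), below the others (0.842 of the range). The Fzd1 and Fzd3 signals were dim on all arrays.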

How the results depend on the processing

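Against 4 member genes called in tumours against pre-transformed cells, 2 were called with no filter, the filter on 4 arrays, quantile normalization, median centring, the fit of both groups alone, the replicate block or tumour 2 as the only tumour, 1 with a floor of 32, 0 with a 2-fold minimum and 1 to 3 with an array left out. Against 1 called in tumours against controls, 2 were called with quantile normalization, median centring, no trend, array weights or tumour 2 alone, 0 with the floor or the 2-fold minimum, and 1 to 2 with an array left out. By probe set, 5 against pre-transformed cells became 3 with no filter, the filter on 4 arrays, either normalization, the groups alone or tumour 2 alone, 2 with the floor, 1 with the 2-fold minimum and 2 to 5 with an array left out. The 2 against controls became 3 with no filter, median centring, no trend, array weights or tumour 2 alone, 1 with the floor or the 2-fold minimum, and 2 to 3 with an array left out. With tumour 2 alone the lone tumour is assumed to vary like the sorted groups, and tumour 2 had the highest Fzd5 signal. Fzd5 kept its direction in all 23 alternatives against pre-transformed cells and was called in all but the 2-fold minimum (adjusted p = 0.125). Against controls it was called in 19 of 22, all but the floor (adjusted p = 0.0501), the 2-fold minimum (0.0581) and the mean of probe sets. The second Lrp6 probe set was called in all 20 and 19 alternatives, at adjusted p up to 0.00986 and 0.0297. The brighter one passed in 1 of 23 and 1 of 22, the mean of both probe sets (log2 −1.62 and −1.56). Between the sorted groups no member was called in any alternative, and some differences changed sign: Lrp6 with median centring (−0.049) or the replicate block (−0.043), its second probe set with quantile normalization (−0.044), centring (−0.098) or the block (−0.054), Fzd5 with the mean of probe sets (−0.435), and Fzd1 with array weights (0.017). With an array left out they ran from −0.246 to 0.182 for Fzd1, −0.014 to 0.575 for Lrp5, −0.043 to 0.304 for Lrp6 and −0.054 to 0.168 for its second probe set. The cause was not tested.

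Same-numbered mice of different groups did not deviate together (correlations of −0.02 to 0.09 over 11644 genes). Median centring moved the all-gene median from −0.12 to −0.38 against pre-transformed cells and the split of calls from 2785 higher and 3607 lower to 1877 and 4279. Between the sorted groups 190 genes were called, 20 with the floor, 1 without the trend and 431 with array weights. Signal over background limits what can be said of Fzd1, Fzd3, Fzd6, Fzd7 and Lrp5.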
